A study of Mus musculus with 20 samples.

Results

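CCT, also called TRiC, is the ring-shaped chaperonin of the mammalian cytosol. Each of its stacked rings holds 1 copy of each of 8 related subunits, and a nascent protein folds in the cavity that the rings close when ATP is hydrolysed. Actin and tubulin depend on CCT to fold, as do several WD40 proteins of the cell cycle, among them the anaphase activator Cdc20, so the complex is known for supplying the cytoskeleton and the division machinery of growing cells. The subunit genes Tcp1, Cct2, Cct3, Cct4, Cct5, Cct6a, Cct7 and Cct8 were taken by their symbols, and all 8 were found among the 24411 gene symbols of the deposited tables.

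The study measured poly(A) RNA of mouse eggs and embryos around zygotic genome activation, when the embryo starts to transcribe its own genes. B6CASTF1 hybrids were sampled as 2-cell embryos in G2 (2 samples), zygotes in G2 (3 samples) and zygotes in G1 (3 samples). C57BL/6J was sampled at the same stages with 3 samples each, and also as MII eggs, arrested in the second meiotic division (3 samples). The C57BL/6J samples are labelled wild type, none was treated, and each of the 20 samples pooled 10 to 15 oocytes or embryos. The oocytes had matured for 12 hours in M16 medium after removal of dbcAMP, an agent that holds meiotic arrest, and were fertilized in vitro. Embryos grew in KSOM medium under 5% oxygen. The sources used here give neither the direction of the B6CASTF1 cross nor the age of the animals. The labels do not tell separate females or days apart, so the spread behind the p-values is that among these samples and may be technical.

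The values came as 5 comparisons of consecutive stages, each with a log2 fold change, its SE and an adjusted p from the authors' DESeq2 Wald test. A gene counted as higher or lower when that adjusted p was under 0.05. Since values per sample are lacking, library depth is unknown and stage levels are shown without a spread. Each stage level below is an implied mean normalized count, worked out from the mean over a strain and the fold changes between its stages. The strains were normalized in separate fits, so levels are compared within a strain only. In these batch samples, fewer contributing cells and less RNA per cell cannot be told apart.

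The summed marker RNAs below followed the stage labels, though single genes did not all do so. At the 2-cell step the oocyte gene Zp3 was called higher, by 1.08 in B6CASTF1 and 1.69 in C57BL/6J on the log2 scale. Dux, of the 2-cell list, had values of -3.20 and -5.91 there, neither called. Obox6 alone stood at 32932 in B6CASTF1 and 26179 in C57BL/6J 2-cell embryos, a large part of the 2-cell sums. The summed implied level of 10 oocyte genes was 664714 in MII eggs, 387425 in G1 zygotes, 193313 in G2 zygotes and 27277 in 2-cell embryos of C57BL/6J, and 619259, 239589 and 31963 at the 3 B6CASTF1 stages from G1 zygote to 2-cell embryo. The summed level of 10 genes known from 2-cell embryos took the opposite course, from 417 in MII eggs to 36360 in 2-cell embryos of C57BL/6J, and from 2585 in G1 zygotes to 62344 in 2-cell embryos of B6CASTF1. Nr5a2, the nuclear receptor that the series is named for, rose at the 2-cell step by 4.16 in B6CASTF1 (adjusted p = 5.9e-13, SE 0.56) and by 3.11 in C57BL/6J (adjusted p = 2.5e-07, SE 0.57) on the log2 scale, in the authors' deposited table of each strain. Where the mean count was 100 or more, the median SE was 0.36 to 0.40 in B6CASTF1 and 0.83 to 0.90 in C57BL/6J, so the hybrid comparisons were the more precise.

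The 8 genes lie apart in the genome (GRCm38, GENCODE M21). Tcp1, the alpha subunit and the first to be found, lies in the t-complex region at chr17:12915701-12925067 on the plus strand. Cct2, the beta subunit, is at chr10:117051001-117063814 on the minus strand. Cct3, the gamma subunit, is at chr3:88297116-88321767 on the plus strand. Cct4, the delta subunit, is at chr11:22990519-23003780 on the plus strand. Cct5, the epsilon subunit, is at chr15:31590800-31601804 on the minus strand. Cct6a, the zeta subunit, is at chr5:129786998-129846371 on the plus strand. Cct7, the eta subunit, is at chr6:85451514-85468475 on the plus strand. Cct8, the theta subunit, is at chr16:87483326-87495873 on the minus strand. The fold changes are values per whole gene and do not separate exons, introns or isoforms.

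The start regions of 3 members are shown, each for its own reason: Cct2 had the smallest change into the 2-cell stage in C57BL/6J, Cct3 the clearest difference between the strains, and Cct8 the highest level before that stage. The sequences come from RefSeq (GRCm38.p6), run 5′ to 3′ on the gene's strand and end before the gene's first annotated base in RefSeq or GENCODE M21, whichever lies further upstream, without bases in an annotated exon of a neighbour. Those of Cct6a, which moved furthest from the members' median course, and of Tcp1 lie wholly in annotated exons and are not shown. Capitals mark the GC box GGGCGG or its complement CCGCCC, and the CCAAT box or its complement ATTGG.
Cct2, chr10:117063853-117064102, minus strand, GRCm38.p6: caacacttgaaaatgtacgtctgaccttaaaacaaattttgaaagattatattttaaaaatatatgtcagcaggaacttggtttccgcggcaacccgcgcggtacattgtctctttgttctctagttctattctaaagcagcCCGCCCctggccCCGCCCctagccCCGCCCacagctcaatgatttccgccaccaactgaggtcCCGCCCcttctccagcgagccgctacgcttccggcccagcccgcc
Cct3, chr3:88297000-88297115, plus strand, GRCm38.p6: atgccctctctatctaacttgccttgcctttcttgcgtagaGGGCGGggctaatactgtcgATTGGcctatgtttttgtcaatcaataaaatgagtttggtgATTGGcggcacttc
Cct8, chr16:87495874-87495998, minus strand, GRCm38.p6: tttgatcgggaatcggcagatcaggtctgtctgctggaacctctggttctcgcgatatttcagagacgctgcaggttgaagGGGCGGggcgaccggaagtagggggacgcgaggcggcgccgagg

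These stretches hold 4 GC boxes before Cct2, 1 before Cct3 and 1 before Cct8, and 2 CCAAT boxes before Cct3. The RefSeq table holds windows of 300 bases (250 before and 50 after a start) for 7 of the 8 members, 9 windows in all. Searched on both strands, the GC box GGGCGG was found in a window of 7 of 7 member genes. By window it was in 8 of the 9, and in 35.7% of all 32851 windows of the table. G and C made up 47.3% to 67.7% of the member windows, and no share matched for base content was worked out. CCAAT was found in 4 of 7 genes and 4 of 9 windows (37.4% of all windows), and the heat shock core GAANNTTC only in a second window of Cct2 (7.86%). The Nr5a2 element TCAAGGNCA was in 0 of 7 (1.62%) and TATAAA in 0 of 7 (13.6%). A match is a run of letters and not a bound site. The starts of Cct3 and Tsacc, which are transcribed in opposite directions, lie 117 bases apart, and those of Cct5 and Fam173b 48 bases apart.

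Most calls among the subunit mRNAs were made at entry into the 2-cell stage. In B6CASTF1 all 8 rose and 0 fell, beside 33.1% of all genes tested that rose and 26.8% that fell. In C57BL/6J 4 of 8 rose (Tcp1, Cct3, Cct4 and Cct5) and 0 fell, beside 25% of all genes tested that rose and 25.3% that fell. All 8 log2 fold changes were positive in each strain. Their median was 2.93 in B6CASTF1 and 2.48 in C57BL/6J, or 2.50 and 2.05 without the sparsely counted Cct6a, while the median of all genes tested was 0.55 in B6CASTF1 and 0.17 in C57BL/6J.

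**Figure D1:**
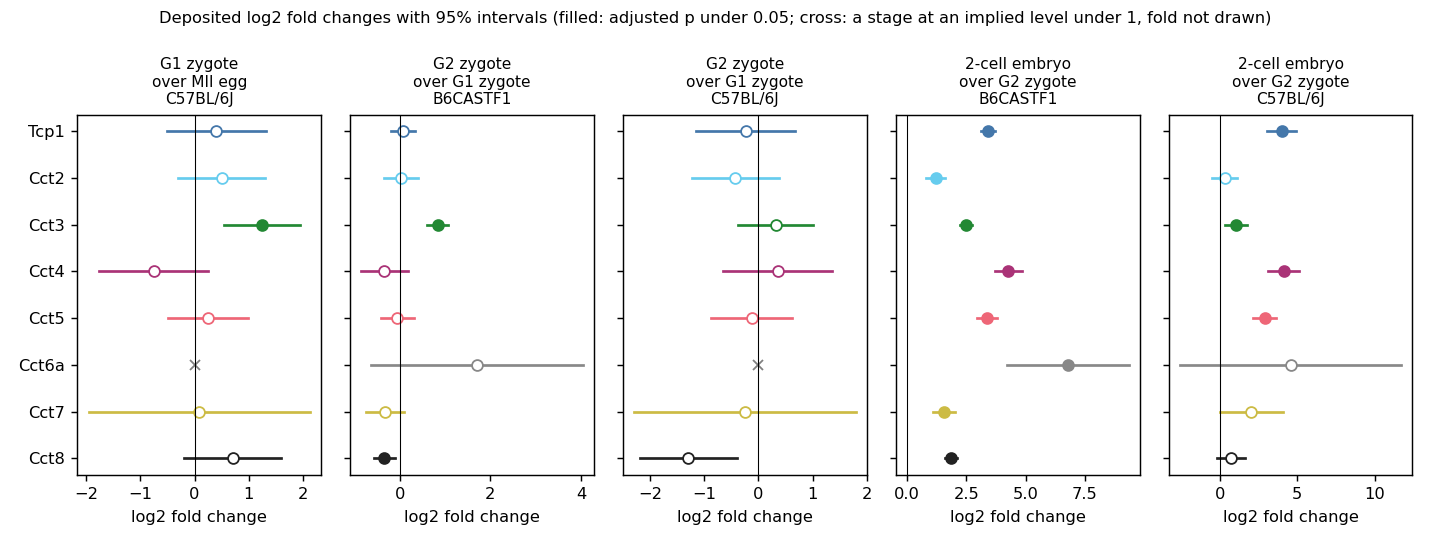
Log2 fold changes of the 8 subunit genes in the authors' deposited tables, 1 panel per comparison, with bars of 95% intervals; filled points passed an adjusted p of 0.05. All points lie right of 0 in both 2-cell panels, and the points drawn for the earlier steps lie between -1.29 and 1.71; Cct6a, marked by a cross, has no point in the earlier C57BL/6J panels, where a stage was under a level of 1.

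In yeast, the counterparts of Tcp1, Cct2, Cct4 and Cct5 are the subunits that bind ATP tightly. Tcp1 had an implied level of 14602 in B6CASTF1 2-cell embryos, against 1361 in G2 zygotes, and of 9160 in C57BL/6J 2-cell embryos, against 573 in G2 zygotes. It rose 10.7-fold in B6CASTF1 (log2 fold change 3.42, adjusted p = 9.5e-118, SE 0.15) and 16.0-fold in C57BL/6J (adjusted p = 2.1e-16, SE 0.47 on the log2 scale) in the authors' deposited table of each strain. The C57BL/6J change of Tcp1 exceeded that of 84.6% of all genes tested.

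Cct4, whose rat counterpart is mutated in a hereditary sensory neuropathy, was among the scarcest subunit mRNAs of the zygote. Its implied level was 6285 in B6CASTF1 2-cell embryos, against 324 in G2 zygotes, and 3061 in C57BL/6J 2-cell embryos, against 176 in G2 zygotes. In the authors' deposited table of each strain it rose 19.4-fold in B6CASTF1 (log2 fold change 4.28, adjusted p = 2.4e-49, SE 0.29) and 17.4-fold in C57BL/6J (4.12, adjusted p = 1.4e-14, SE 0.51). Cct4 thus had nearly the same fold in each strain.

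Cct5, whose human counterpart can form rings without the other subunits when made in bacteria, stood at 13679 in B6CASTF1 2-cell embryos, against 1328 in G2 zygotes, and at 7305 in C57BL/6J 2-cell embryos, against 976 in G2 zygotes. It rose by 3.36 in B6CASTF1 (adjusted p = 1.4e-56, SE 0.21) and by 2.90 in C57BL/6J (adjusted p = 3.3e-13, SE 0.38) on the log2 scale, in the authors' deposited table of each strain. Cct5 was the member closest to the group's median course, as set out below.

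Cct2 moved least. Its implied level was 4524 in B6CASTF1 2-cell embryos, against 1960 in G2 zygotes, and 2122 in C57BL/6J 2-cell embryos, against 1674 in G2 zygotes. It rose by 1.21 on the log2 scale in B6CASTF1 (adjusted p = 5.3e-08, SE 0.21) in the authors' deposited table. In C57BL/6J the authors' deposited table gave it 0.34 (adjusted p = 0.51, SE 0.41), with a 95% interval of -0.46 to 1.15, so a doubling is not excluded there. The C57BL/6J change of Cct2 exceeded that of 52.1% of genes tested, near the middle of all genes.

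Cct3, Cct6a, Cct7 and Cct8 are the counterparts of the yeast subunits with weak ATP binding. Cct3 stood at 21095 in B6CASTF1 2-cell embryos, against 3722 in G2 zygotes, and at 3481 in C57BL/6J 2-cell embryos, against 1694 in G2 zygotes. It rose 5.67-fold in B6CASTF1 (log2 fold change 2.50, adjusted p = 2.7e-82, SE 0.13) and 2.06-fold in C57BL/6J (1.04, adjusted p = 0.0085, SE 0.35) in the authors' deposited table of each strain. Cct3 was the weakest of the 4 calls in C57BL/6J, and with Bonferroni adjustment or SEs raised 1.5 times it was no longer among them.

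Cct8, whose worm counterpart promotes CCT assembly when overexpressed, stood at 35217 in B6CASTF1 2-cell embryos, against 9809 in G2 zygotes, and at 7813 in C57BL/6J 2-cell embryos, against 4714 in G2 zygotes. It rose by 1.84 on the log2 scale in B6CASTF1 (adjusted p = 5.1e-45, SE 0.13) in the authors' deposited table. The C57BL/6J value in the authors' deposited table was 0.73 (adjusted p = 0.17, SE 0.46), with a 95% interval of -0.17 to 1.62.

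Cct7 stood at 2884 in B6CASTF1 2-cell embryos, against 981 in G2 zygotes, and at 1328 in C57BL/6J 2-cell embryos, against 321 in G2 zygotes. It rose by 1.56 in B6CASTF1 (adjusted p = 2.9e-10, SE 0.24) in the authors' deposited table. In C57BL/6J the authors' deposited table gave a higher value with a wide error, 2.05 (adjusted p = 0.089, SE 1.04).

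Cct6a was barely counted before the 2-cell stage. Its implied level was 4844 in B6CASTF1 2-cell embryos, against 43.9 in G2 zygotes, and 1159 in C57BL/6J 2-cell embryos, against 48.7 in G2 zygotes. It rose 110-fold in B6CASTF1 (log2 fold change 6.79, adjusted p = 6.4e-07, SE 1.30) in the authors' deposited table. In C57BL/6J the authors' deposited table gave 4.57 with an SE of 3.64 (adjusted p = 0.30), the widest error of the 8. Cct6a had the largest fitted change in each strain, but the authors' shrunken values for C57BL/6J, in the authors' deposited table, were 3.33 for Cct6a, below Cct4 at 4.07 and Tcp1 at 3.96.

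**Figure D2:**
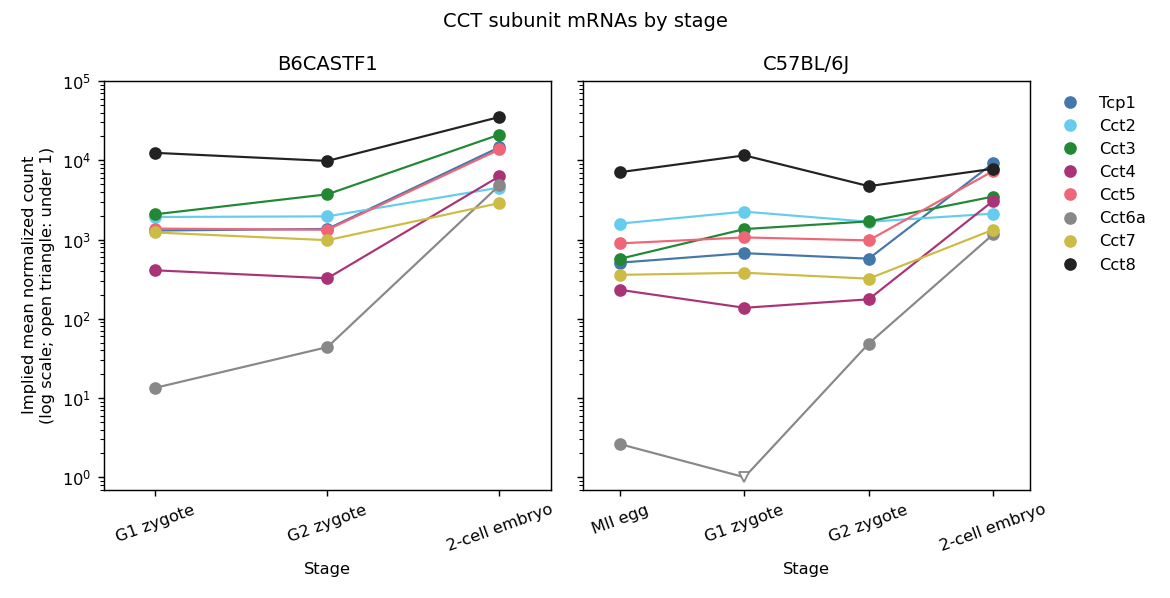
Implied mean normalized count of each subunit gene (log scale) at each stage of B6CASTF1 and C57BL/6J; 1 line per gene, no spread over samples being held in the tables. Most lines run nearly flat between MII egg and G2 zygote and climb into the 2-cell embryo, with Cct8 on top before it and Cct6a, under 1 in C57BL/6J G1 zygotes (open triangle), at the bottom.

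Markers of other cells moved at the same step. In 2-cell embryos against G2 zygotes, the summed level of 10 testis and sperm genes was 1245 against 172 in B6CASTF1 and 1403 against 204 in C57BL/6J, with Tnp2 and Meig1 at 0 in B6CASTF1 and Tnp1 and Pgk2 at 0 in C57BL/6J throughout. Most of the 2-cell sums was Ldhc (940 in B6CASTF1, 449 in C57BL/6J) and the CCT paralog Cct6b (279 in B6CASTF1, 753 in C57BL/6J), while the protamine gene Prm2 in B6CASTF1 and Akap4 in C57BL/6J were called lower. That of 6 blood and oviduct genes was 9388 against 123 in B6CASTF1 and 6349 against 86.7 in C57BL/6J, most of it in 2-cell embryos Epcam (6336 in B6CASTF1, 2287 in C57BL/6J) and the hemoglobin gene Hba-a1 (2858 in B6CASTF1, 3827 in C57BL/6J, where it was not tested), with Hbb-bs at 0 in both strains and Alas2 at 0 in C57BL/6J. That of 12 cumulus and granulosa genes was 1477 against 1456 in B6CASTF1 and 302 against 850 in C57BL/6J, with Foxl2 at 0 in B6CASTF1 and Inha, Inhba, Ptx3 and Cyp11a1 at 0 in C57BL/6J. Its members moved opposite ways: Cyp19a1 fell to 24.5 in B6CASTF1 2-cell embryos, against 1338 in G2 zygotes, and to 4.05 in C57BL/6J 2-cell embryos, against 810 in G2 zygotes. Amhr2 was called higher in both strains, at 891 in B6CASTF1 and 286 in C57BL/6J 2-cell embryos against levels under 1 in G2 zygotes, and Ptgs2 in B6CASTF1, at 203 against a level under 1. The part of these RNAs in the CCT changes was not tested.

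Reads of some members may be shared with other genes. Of the stretches of 31 bases in the longest annotated transcript, the share also present in transcripts of other genes, on either strand, was 24.8% for Tcp1 (mostly Acat3), 17.4% for Cct6a (Psph), 15.2% for Cct7, 13.1% for Cct3 (mostly the pseudogene Cct3-ps1), 6.85% for Cct8 (Usp16), 3.50% for Cct4, 0.104% for Cct2 and 0 for Cct5. The sources used here do not say whether counting used strand, so reads from overlapping neighbours cannot be told apart from these genes' own. GENCODE M21 lists 7 transcripts of Cct6a and 0 coding ones, and the annotation that the authors counted against is not known here. The values of Tcp1, Cct3, Cct6a and Cct7 are uncertain to that extent.

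Between G1 and G2 of the zygote, few members were called, and their counts were not far from the shares of all genes. The members' median SE was 0.46 in C57BL/6J, so a missing call there does not show a missing change. In B6CASTF1 1 of 8 rose (Cct3) and 1 fell (Cct8), beside 9.63% of all genes tested that rose and 9.63% that fell. In C57BL/6J 1 of 8 rose (Cct6a) and 0 fell, beside 5.01% of all genes tested that rose and 2.87% that fell. The members' median log2 fold change was -0.01 in B6CASTF1 and -0.18 in C57BL/6J, against 0.00 and 0.12 for all genes tested. These comparisons share the G2 zygote samples with the 2-cell comparisons of the same strain.

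Cct3 had an implied level of 3722 in B6CASTF1 G2 zygotes, against 2082 in G1 zygotes, and of 1694 in C57BL/6J G2 zygotes, against 1355 in G1 zygotes. It rose by 0.84 on the log2 scale in B6CASTF1 (adjusted p = 4.0e-11, SE 0.12) in the authors' deposited table, and in C57BL/6J the authors' deposited table gave 0.32 (adjusted p = 0.74, SE 0.35). Cct3 alone of the 8 passed the test upward in B6CASTF1 before the 2-cell stage.

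Cct8 stood at 9809 in B6CASTF1 G2 zygotes, against 12405 in G1 zygotes, and at 4714 in C57BL/6J G2 zygotes, against 11530 in G1 zygotes. It fell by 0.34 in B6CASTF1 (adjusted p = 0.022, SE 0.12), a call lost on recentring on the median gene, in the authors' deposited table. The C57BL/6J value in the authors' deposited table was larger and less certain, -1.29 (adjusted p = 0.057, SE 0.46), and it passed the test when the adjustment ran over genes of mean count 100 or more. The Cct8 values of the strains therefore lay on the same side of 0.

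Cct6a in C57BL/6J was at 48.7 in G2 zygotes, against a level under 1 in G1 zygotes, and was called higher in the authors' deposited table (adjusted p = 1.0e-06). No fold is given against a stage with so few counts. In B6CASTF1 it stood at 43.9 in G2 zygotes, against 13.4 in G1 zygotes, with a log2 fold change of 1.71 (adjusted p = 0.36, SE 1.19) in the authors' deposited table. The other 5 members had log2 fold changes of -0.33 to 0.07 in B6CASTF1 and -0.43 to 0.36 in C57BL/6J in the authors' deposited table of each strain, and none passed the test.

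At fertilization in C57BL/6J (G1 zygotes against MII eggs), 1 of 8 members rose (Cct3) and 1 fell (Cct6a), beside 1.62% of all genes tested that rose and 1.12% that fell. Cct3 stood at 1355 in G1 zygotes, against 572 in MII eggs, and rose 2.37-fold (log2 fold change 1.25, adjusted p = 0.021, SE 0.36) in the authors' deposited table. The Cct3 call was lost at an adjusted p under 0.01, with Bonferroni adjustment and with SEs raised 1.5 times. Cct6a fell to a level under 1 in G1 zygotes, against only 2.61 in MII eggs (in the authors' deposited table, adjusted p = 3.6e-04). The authors' shrunken log2 fold change, which draws uncertain values to 0, was -0.49.

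The other 6 members did not pass the test at fertilization. Cct8 stood at 11530 in G1 zygotes, against 7078 in MII eggs (log2 fold change 0.70, adjusted p = 0.85, SE 0.46, in the authors' deposited table). Cct4 stood at 138 in G1 zygotes, against 231 in MII eggs (-0.75, adjusted p = 0.89, SE 0.51, in the authors' deposited table). Tcp1, Cct2, Cct5 and Cct7 had log2 fold changes of 0.09 to 0.50 with SEs of 0.38 to 1.04 in the authors' deposited table. The members' median was 0.32 and that of all genes tested -0.08. This comparison shares the G1 zygote samples with the next step in C57BL/6J.

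Summed over the steps, Tcp1 was 17.9-fold, Cct4 13.2-fold, Cct5 8.16-fold, Cct3 6.09-fold and Cct7 3.71-fold higher in 2-cell embryos than in MII eggs of C57BL/6J. Cct2 was 1.33-fold and Cct8 1.10-fold higher over the same span. Cct6a was at 1159 in 2-cell embryos, against 2.61 in MII eggs. These sums carry no SE, because consecutive comparisons share a stage. In B6CASTF1, 2-cell embryos against G1 zygotes, the net log2 changes were 1.23 for Cct2 and for Cct7, 1.51 for Cct8, 3.32 for Cct5, 3.34 for Cct3, 3.49 for Tcp1, 3.94 for Cct4 and 8.49 for Cct6a. Against G1 zygotes of C57BL/6J, 2-cell embryos had net log2 values of -0.08 for Cct2 and -0.56 for Cct8, the only negative ones among the 7 members other than Cct6a.

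The make-up of the subunit mRNAs, by implied level, changed between stages. Only poly(A) RNA was measured, so these shares do not describe the subunit proteins. Levels of different genes were compared per kilobase of the longest coding transcript (for Cct6a, its longest transcript). Before the 2-cell stage Cct8 had the highest level per kilobase, with 59.3%, 62.5% and 42.2% of the summed level of the 8 genes in MII eggs, G1 zygotes and G2 zygotes of C57BL/6J, and 56.6% and 46.5% in G1 and G2 zygotes of B6CASTF1. At the 2-cell stage the largest share was 31.5% in B6CASTF1, still that of Cct8, and 24.6% in C57BL/6J, that of Cct5. With median in place of longest transcript lengths, Cct8 had the largest 2-cell share in both strains, 51.1% in B6CASTF1 and 34.7% in C57BL/6J.

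The order of the levels per kilobase was set out for each end of the course. In C57BL/6J MII eggs it ran Cct8 (2957), Cct2 (811), Cct5 (483), Cct3 (289), Tcp1 (209), Cct7 (147), Cct4 (93.1) and Cct6a (1.07). In C57BL/6J 2-cell embryos it ran Cct5 (3942), Tcp1 (3745), Cct8 (3264), Cct3 (1761), Cct4 (1232), Cct2 (1083), Cct7 (544) and Cct6a (472). In B6CASTF1 2-cell embryos it ran Cct8 (14711), Cct3 (10670), Cct5 (7382), Tcp1 (5970), Cct4 (2530), Cct2 (2309), Cct6a (1974) and Cct7 (1182). Since the spread over samples is not held in the tables, it could not be tested which neighbours in these orders differ.

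**Figure D3:**
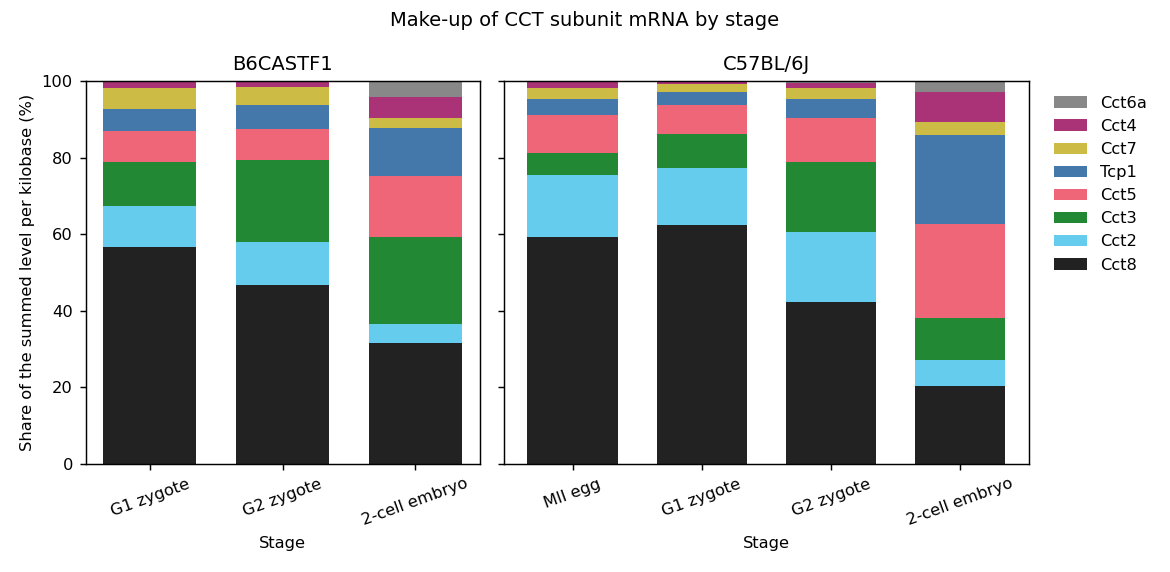
Share of each subunit gene in the summed implied level per kilobase (percent) at each stage of B6CASTF1 and C57BL/6J, stacked to 100%. The Cct8 segment fills 42.2% to 62.5% of the bars up to G2 zygotes and 31.5% (B6CASTF1) or 20.3% (C57BL/6J) of the 2-cell bars, where the Tcp1, Cct4 and Cct6a segments are wider than before.

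The spread of the 8 levels per kilobase was smaller in 2-cell embryos. The coefficient of variation, the SD over the mean of the 8 genes, was 157% in MII eggs, 166% in G1 zygotes, 112% in G2 zygotes and 71.4% in 2-cell embryos of C57BL/6J. In B6CASTF1 it was 146% in G1 zygotes, 122% in G2 zygotes and 83.0% in 2-cell embryos. With median transcript lengths the B6CASTF1 values were 191%, 168% and 129%, and those of C57BL/6J 192%, 201%, 154% and 92.6%, in the same stage order. The highest level exceeded the lowest 12.4-fold in B6CASTF1 2-cell embryos, against 229-fold in G2 zygotes, and 8.35-fold in C57BL/6J 2-cell embryos, against 99.3-fold in G2 zygotes. Without Cct6a the ratios were 12.4 and 31.4 in B6CASTF1, and 7.25 and 27.8 in C57BL/6J, in the order 2-cell embryos, G2 zygotes.

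Members scarce in the zygote tended to have the larger fold changes into the 2-cell stage, though not all did. In B6CASTF1, Cct7 was at 402 per kilobase in G2 zygotes and Cct8 at 4097. The log2 fold change of Cct7 there was 1.56, below that of Cct8 at 1.84. To keep the measures on separate libraries, the G2 level per kilobase of 1 strain was set against the 2-cell change of the other. Spearman's rho was -0.86 over the 8 genes with B6CASTF1 levels and C57BL/6J changes, and -0.64 with C57BL/6J levels and B6CASTF1 changes. Without Cct6a these were -0.79 and -0.46. Genome-wide, where the mean count was 100 or more in each strain, rho was -0.38 (7222 genes) and -0.33 (7477 genes), so the relation was negative there too. That mean count includes the 2-cell stage, so a gene low in G2 zygotes could pass through a high 2-cell level. Part of the genome-wide rho may therefore come from the filter, and how much was not tested. The points share their libraries within a strain, and no p is given.

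The strains were compared by the difference of their log2 fold changes, B6CASTF1 minus C57BL/6J, over the combined SE of the separate fits, with p-values adjusted over all genes tested in both. The strains are also separate sets of libraries, and the 2 cannot be told apart. At the 2-cell step 1 of 8 members differed, Cct3, with 11.6% of 12573 genes higher in B6CASTF1 and 5.03% lower. The Cct3 difference was 1.46 (SE 0.38, 95% interval 0.72 to 2.20, adjusted p = 0.0016), so its rise was steeper in B6CASTF1. It was not past the threshold with SEs raised 1.5 times. The median difference of all genes was 0.29 and that of the members 0.66.

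For Cct8 the difference at the 2-cell step was 1.12 (SE 0.47, 95% interval 0.18 to 2.05, adjusted p = 0.092), and for Cct2 0.86 (SE 0.46, 95% interval -0.04 to 1.77, adjusted p = 0.21), neither past the threshold. Cct4 had a difference of 0.16 (95% interval -0.99 to 1.30), Cct5 of 0.46 (-0.39 to 1.31), Tcp1 of -0.57 (-1.53 to 0.38) and Cct7 of -0.49 (-2.59 to 1.60). The interval of Cct6a, -5.37 to 9.80, bounds its difference hardly at all. The members called in B6CASTF1 but not in C57BL/6J (Cct2, Cct6a, Cct7 and Cct8) are therefore not shown to behave differently in the strains.

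**Figure D4:**
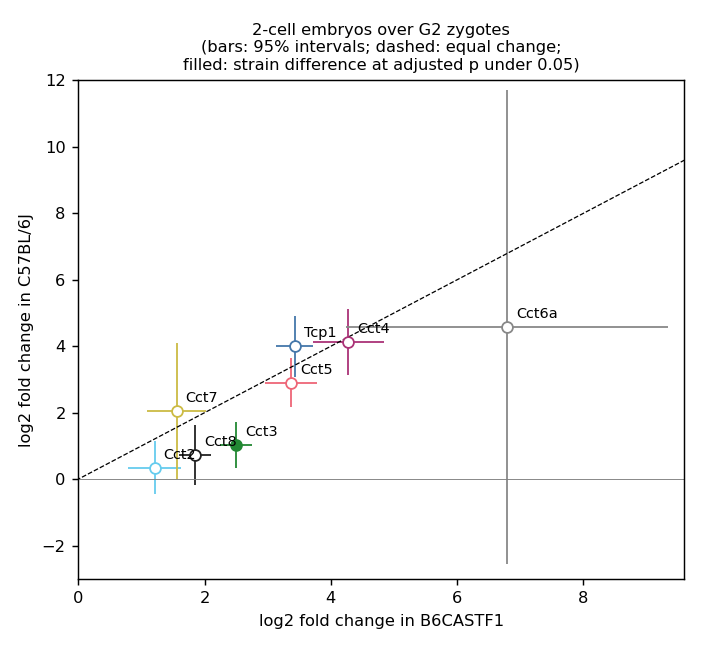
Log2 fold change from G2 zygotes to 2-cell embryos in B6CASTF1 (x axis) and C57BL/6J (y axis) for the 8 subunit genes, with 95% intervals; the dashed line marks equal change. Cct3, the filled point, lies below the line at 2.50 and 1.04, while the 95% interval of the difference spans 0 for Tcp1, Cct2, Cct4, Cct5, Cct6a and Cct7.

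At the G2 over G1 step, 1.04% of 12517 genes had a difference higher in B6CASTF1 and 0.879% a lower one, and 1 of 8 members differed. This was Cct6a (adjusted p = 1.1e-04), lower in B6CASTF1, and it rests on the level under 1 in C57BL/6J G1 zygotes. Cct8 had a difference of 0.95 (adjusted p = 0.48, SE 0.47), and the other 6 lay between -0.69 and 0.52, with adjusted p-values of 0.81 and above.

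The paralogs of the ring genes were measured too. Cct6b, the testis paralog of Cct6a, stood at 279 in B6CASTF1 2-cell embryos, against 2.61 in G2 zygotes, and rose by 6.74 on the log2 scale (adjusted p = 1.5e-05, SE 1.48) in the authors' deposited table. In C57BL/6J it stood at 753 in 2-cell embryos, against a level under 1 in G2 zygotes (in the authors' deposited table, adjusted p = 8.6e-07). The Cct6b level per kilobase in C57BL/6J 2-cell embryos was 403, and that of Cct6a 472. The transcripts of Cct6a and Cct6b share 0 stretches of 31 bases. Cct8l1 was called higher in B6CASTF1 (41.9 in 2-cell embryos, against a level under 1 in G2 zygotes, in the authors' deposited table, adjusted p = 0.046) and was not tested in C57BL/6J.

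Genes that work with CCT did not move as one body at the 2-cell step. The counts below stand beside 33.1% of all genes tested that rose and 26.8% that fell in B6CASTF1, and 25% that rose and 25.3% that fell in C57BL/6J, and with lists this short several are not far from those shares. Prefoldin, the complex that hands actin and tubulin to CCT, had 4 of 6 subunits higher and 2 lower in B6CASTF1, and 2 higher and 2 lower in C57BL/6J, with medians of 0.58 and 0.35. Pfdn6 rose by 4.32 on the log2 scale (adjusted p = 3.6e-42, SE 0.31) in B6CASTF1 and 42.3-fold (adjusted p = 3.2e-13, SE 0.71 on the log2 scale) in C57BL/6J, in the authors' deposited table of each strain. Pfdn4 fell by 4.51 (adjusted p = 5.4e-111, SE 0.20) in B6CASTF1 and by 4.18 (adjusted p = 5.0e-18, SE 0.46) in C57BL/6J, in the authors' deposited table of each strain. Both belong to the same complex, and Pfdn4 was at 326 in B6CASTF1 2-cell embryos, against 7455 in G2 zygotes, and at 1895 in C57BL/6J 2-cell embryos, against 34364 in G2 zygotes.

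Of 3 phosducin-like and thioredoxin-like cofactors that bind CCT, 1 rose (Pdcl) and 2 fell (Pdcl3 and Txndc9) in B6CASTF1, and 0 rose and 1 fell (Txndc9) in C57BL/6J. Txndc9, which lowers CCT activity in biochemical work, fell by 0.62 (adjusted p = 0.0031, SE 0.20) in B6CASTF1 and by 0.71 (adjusted p = 0.045, SE 0.31) in C57BL/6J at the 2-cell step, in the authors' deposited table of each strain. Before that it had risen between G1 and G2 by 2.42 (adjusted p = 2.5e-40, SE 0.18) in B6CASTF1 and by 2.69 (adjusted p = 1.1e-14, SE 0.31) in C57BL/6J, and at fertilization by 1.15 (adjusted p = 0.012, SE 0.31), in the authors' deposited table of each comparison. Txndc9 was at 12590 in B6CASTF1 2-cell embryos, against 19412 in G2 zygotes, and at 28410 in C57BL/6J 2-cell embryos, against 46521 in G2 zygotes.

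Of the tubulin cofactors, which take tubulin over from CCT and build the dimer, 3 of 6 rose in B6CASTF1 and 2 of 5 in C57BL/6J, and 0 fell (all genes tested: 33.1% and 25% higher, 26.8% and 25.3% lower). Tbcb rose by 3.63 (adjusted p = 5.1e-31, SE 0.31) in B6CASTF1 and by 3.45 (adjusted p = 1.3e-17, SE 0.39) in C57BL/6J, in the authors' deposited table of each strain. Tbcc rose by 4.71 (adjusted p = 9.3e-21, SE 0.49) in B6CASTF1 and by 4.63 (adjusted p = 7.8e-04, SE 1.26) in C57BL/6J, in the authors' deposited table of each strain.

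Clients were mixed. Of the actin and tubulin genes, 9 of 16 rose and 4 fell in B6CASTF1 (all genes tested 33.1% and 26.8%), and 8 of 15 rose and 3 fell in C57BL/6J (all genes tested 25% and 25.3%), with medians of 1.70 and 2.64. Tubb5 rose by 4.31 in B6CASTF1 (adjusted p = 6.3e-38, SE 0.33) in the authors' deposited table, and the neuronal isotype Tubb3 fell by 2.78 there (adjusted p = 2.2e-25, SE 0.26) in the authors' deposited table. In C57BL/6J the authors' deposited table gave a rise of 2.84 for Tubg1, the gamma-tubulin of microtubule nucleation (adjusted p = 7.8e-05, SE 0.66). With smaller p-values there, Tubb2a fell by 4.73 (adjusted p = 8.0e-08, SE 0.83) and Tubb2b by 5.29 (adjusted p = 6.4e-06, SE 1.09). Tubb5 (4.02) and Tubb3 (-3.61) were called the same way in C57BL/6J as in B6CASTF1. In B6CASTF1 Tubg1 (2.22) was also called higher and Tubb2b (-2.87) lower, while Tubb2a (-0.46) was not called. Of the WD40 and cell cycle clients, 6 of 12 rose and 3 fell in B6CASTF1, and 2 of 10 rose and 1 fell in C57BL/6J. Cdc20 stood at 29351 in B6CASTF1 2-cell embryos, against 3298 in G2 zygotes, and rose by 3.15 (adjusted p = 2.3e-64, SE 0.18) in the authors' deposited table. Ppp2r2a, a regulatory subunit of phosphatase 2A, rose in the authors' deposited table of each strain. Its values were 2.71 (adjusted p = 3.2e-31, SE 0.23) in B6CASTF1 and 2.45 (adjusted p = 2.7e-06, SE 0.49) in C57BL/6J. In C57BL/6J Ppp6c rose by 4.25 (adjusted p = 3.5e-24, SE 0.40) and Plk1 fell by 1.90 (adjusted p = 7.1e-04, SE 0.51) in the authors' deposited table.

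Of the cytosolic HSP70 and HSP90 genes, 12 of 20 rose and 3 fell in B6CASTF1 (all genes tested 33.1% and 26.8%), and 8 of 17 rose and 2 fell in C57BL/6J (all genes tested 25% and 25.3%), with medians of 2.70 and 1.52. Hspa8, the constitutive HSP70 that passes clients to CCT, rose by 3.77 in B6CASTF1 (adjusted p = 4.8e-197, SE 0.13) in the authors' deposited table. Stip1, which links HSP70 to HSP90, rose by 2.84 (adjusted p = 6.8e-39, SE 0.21) in B6CASTF1 and by 2.65 (adjusted p = 3.4e-16, SE 0.31) in C57BL/6J, in the authors' deposited table of each strain. Hsp90aa1 fell by 2.10 in C57BL/6J (adjusted p = 6.3e-39, SE 0.16) in the authors' deposited table. Both were called the same way in the other strain, Hspa8 in C57BL/6J (1.88) and Hsp90aa1 in B6CASTF1 (-1.31). The mitochondrial chaperonin, an evolutionary relative of CCT in another compartment, had 1 of 2 genes higher in each strain: Hspd1 rose by 0.75 in B6CASTF1 (adjusted p = 0.0010, SE 0.21) and Hspe1 by 0.99 in C57BL/6J (adjusted p = 0.0015, SE 0.28), in the authors' deposited table of each strain. Hspd1 had 1.45 in C57BL/6J (adjusted p = 0.058, SE 0.67) and Hspe1 0.12 in B6CASTF1 (adjusted p = 0.68, SE 0.24) by the same Wald test. The strain difference was not called for Hspd1 (adjusted p = 0.58) or Hspe1 (adjusted p = 0.093) in the normal test.

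**Figure D5:**
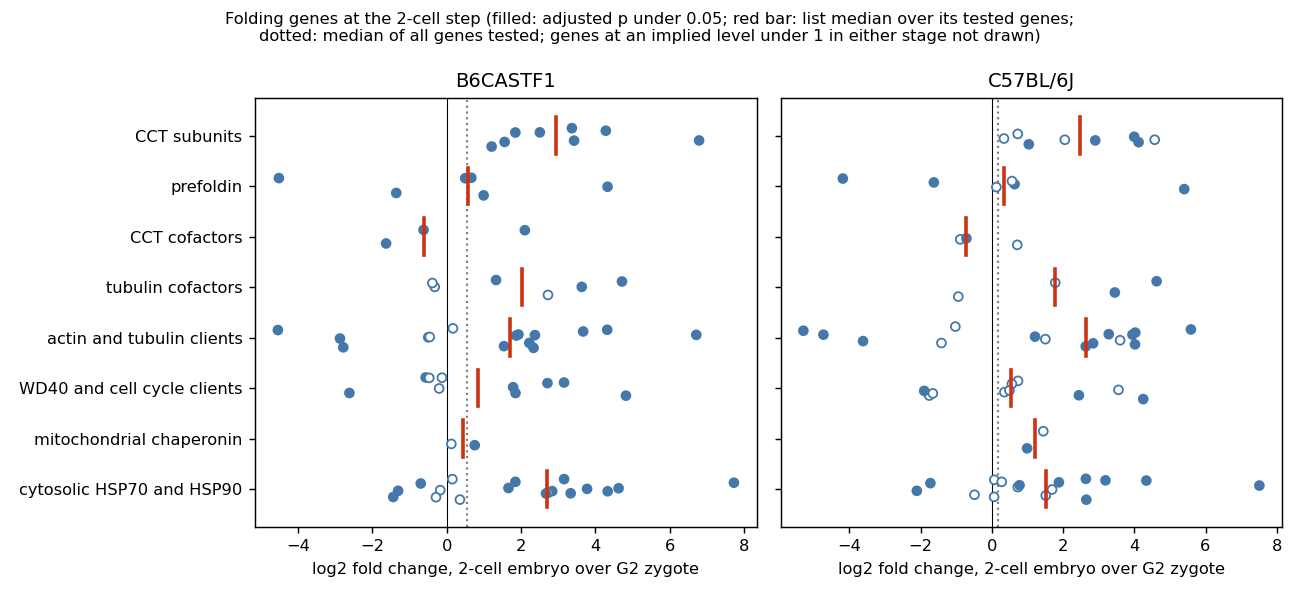
Log2 fold changes from G2 zygotes to 2-cell embryos in B6CASTF1 and C57BL/6J, for the CCT subunits and 7 lists of cofactor, client and other chaperone genes. Each point is a gene, filled where the adjusted p was under 0.05. List medians are red bars, and the median of all tested genes is dotted. The CCT points all lie right of 0, with medians of 2.93 and 2.48, whereas each of the other lists except the mitochondrial chaperonin has points on both sides in both strains.

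At the earlier steps fewer genes of these lists passed the test, as did fewer of all genes: 9.63% rose and 9.63% fell between G1 and G2 in B6CASTF1, 5.01% and 2.87% in C57BL/6J, and 1.62% and 1.12% at fertilization. Between G1 and G2, prefoldin had 2 of 6 higher and 1 lower in B6CASTF1 and 2 higher in C57BL/6J. Vbp1, a prefoldin subunit, rose by 0.79 (adjusted p = 7.0e-04, SE 0.20) in B6CASTF1 and by 1.49 (adjusted p = 3.3e-07, SE 0.25) in C57BL/6J, in the authors' deposited table of each strain. Of the actin and tubulin genes 4 of 16 rose and 2 fell in B6CASTF1, and 1 of 15 rose and 0 fell in C57BL/6J. Of the HSP70 and HSP90 genes 4 of 20 rose and 4 fell in B6CASTF1, and 0 of 17 rose and 1 fell in C57BL/6J. At fertilization, Pfdn6, Txndc9 and Tubb4b were the only genes of these lists past the threshold, all higher in G1 zygotes than in MII eggs.

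The genes whose course was nearest to that of the group were picked by likeness, so their closeness is a description. Likeness was the root mean square difference from the members' median profile over the 5 log2 fold changes, for 7772 other genes tested in all comparisons whose mean count was 100 or more in each strain. The nearest were Znhit1 (0.17), Trappc4 (0.18), Ccdc25 (0.20), Mina (0.21) and Rngtt (0.24). Among the members themselves, Cct5 differed from the profile by 0.27, Cct7 by 0.67, Tcp1 by 0.72, Cct3 by 0.90, Cct8 by 1.07, Cct4 by 1.10 and Cct2 by 1.24. Cct6a was far outside, since its fitted changes in C57BL/6J rest on a stage with a level under 1. With the profile taken without Cct6a, 0 of the 5 names were the same. Cct7 (0.46) was then the member nearest to it, ahead of Cct5 (0.55).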

How the data were processed

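Poly(A) RNA of mouse egg and embryo batches was measured in 20 samples of 7 groups. The submitters' processing notes name bcl2fastq, TopHat, kallisto, Picard and DESeq2 and the build mm10 without roles, and the names of the tables give DESeq2 1.18.1. Per the file headers, the authors deposited for each gene a normalized count averaged over the samples of a fit (a signal), the fold change on the log2 scale, plain and shrunken, with an SE, the Wald score, and a p-value before and after adjustment. All deposited tables of a strain gave a gene the same normalized count, so each strain was taken as 1 fit. In B6CASTF1 the 2-cell SE divided by the G2 SE had a median of 1.12 (1460 genes), as for a group of 2 samples, and in C57BL/6J of 1.00 (1147 genes).

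The deposited files hold no raw counts, so depth is unknown and nothing was refitted. Calls are the authors' adjusted p under 0.05. Stage levels were computed from the mean count and the fold changes, weighted by samples per stage, and no fold is given where a stage compared lies under a level of 1. The strain difference used a two-sided normal p with Benjamini-Hochberg adjustment, and was tested on simulated data, with no outcome given here. Lengths and positions came from GENCODE M21, sequences from RefSeq. No table of protein sequences was used here.

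All 8 members were named in every comparison, from other lists up to 3 genes with the smallest p, and as stage checks Mos, Gdf9, Zp3, Zscan4d and Nr5a2. Members and lists were chosen with earlier results of these data known. Alternatives were adjusted p under 0.01, Bonferroni, a minimum mean count of 100, an absolute log2 value of at least 1, recentring on the median gene, SEs raised 1.5 times, shrunken values, 3 samples for B6CASTF1 2-cell embryos, a profile without Cct6a and, added after the data were seen, median transcript lengths. Computations used Python 3.11.15 with scipy 1.17.1, pandas 2.3.3, numpy 2.4.6 and matplotlib 3.10.9.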

Additional observations from a re-analysis of the deposited data

Results flagged for a closer look

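Cct3 differed between the strains at the 2-cell step. Its implied level was 21095 in B6CASTF1 2-cell embryos, against 3722 in G2 zygotes, and 3481 in C57BL/6J 2-cell embryos, against 1694 in G2 zygotes. The difference of the log2 fold changes, B6CASTF1 minus C57BL/6J, was 1.46 (SE 0.38, adjusted p = 0.0016, normal test adjusted over all 12573 genes).

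Cct6a differed between the strains at the G2 over G1 step, with a fitted difference of -20.38 (SE 4.01, adjusted p = 1.1e-04, the same test). The size of that value has no meaning as a fold, because C57BL/6J G1 zygotes were at an implied level under 1. The levels behind it were 43.9 in G2 zygotes against 13.4 in G1 zygotes of B6CASTF1, and 48.7 in G2 zygotes against under 1 in G1 zygotes of C57BL/6J.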

How the results depend on the processing

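At the 2-cell step the counts of members that rose were 8 of 8 in B6CASTF1 under every alternative and 3 or 4 of 8 in C57BL/6J, with Cct3 the one lost (Bonferroni, SEs raised 1.5 times), and 0 fell. Of the calls at the earlier steps, that of Cct6a between G1 and G2 in C57BL/6J stood under the 6 alternatives. All 6 reuse the same fit, with a level under 1 in G1 zygotes, so they do not probe that floor. The Cct6a mean count of 302 in C57BL/6J came mostly from 2-cell embryos (1159), so the minimum of 100 does not probe it either. The count that rose at fertilization, Cct3, was 0 at an adjusted p under 0.01, with Bonferroni and with SEs raised 1.5 times, and the count that fell, Cct6a, was 0 with SEs raised 1.5 times. Between G1 and G2 in B6CASTF1 the count that rose was 0 with an absolute log2 fold change of at least 1. The count that fell there, Cct8, was 0 at an adjusted p under 0.01, with Bonferroni, with an absolute log2 fold change of at least 1, after recentring and with SEs raised 1.5 times. In C57BL/6J the count that fell was 1, Cct8, with a minimum mean count of 100 and after recentring. Both strain differences, lower for Cct6a and higher for Cct3, were counts of 0 with SEs raised 1.5 times. The Cct5 value between G1 and G2 in B6CASTF1 changed sign on recentring, to 0.0070 from -0.05, both far within its SE. Cct8 at that step became -0.28 (no longer called) in B6CASTF1 and -1.32 (called) in C57BL/6J. The shrunken values carry no p of their own, so they bear on sizes only: the 40 kept their sign, and that of Cct6a was -0.49 at fertilization and 2.41 between G1 and G2 in C57BL/6J. Median in place of longest transcript lengths moved the coefficient of variation of B6CASTF1 2-cell embryos to 129% from 83.0%, and taking B6CASTF1 2-cell embryos as 3 samples lowered the 24 B6CASTF1 levels, 15 of them by more than 15%. Where no reason is given, the cause was not tested. No paired analysis was possible because values per sample are lacking and the labels number no replicates across groups. Leaving out replicates could not be run for the same reason. Precision is limited by the SE of C57BL/6J, 0.35 to 1.04 for the members other than Cct6a at the 2-cell step, against 0.13 to 0.29 in B6CASTF1.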

Other observations

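Actb, the beta-actin gene and a main client of CCT, moved in opposite directions in the strains at the 2-cell step; it was picked after its values were seen. Its implied level was 5537 in B6CASTF1 2-cell embryos, against 7820 in G2 zygotes, and 8771 in C57BL/6J 2-cell embryos, against 1410 in G2 zygotes. In the authors' deposited table of each strain it fell by 0.50 on the log2 scale in B6CASTF1 (SE 0.18, adjusted p = 0.012) and rose by 2.64 in C57BL/6J (SE 0.70, adjusted p = 6.1e-04). The difference was -3.14 (SE 0.73, 95% interval -4.56 to -1.71, adjusted p = 3.1e-04, normal test over 12573 genes). The Cct3 difference had the opposite sign. Cdc20, picked in the same way, had a difference of 2.42 (SE 0.50, adjusted p = 4.2e-05, the same test), since the authors' deposited table of C57BL/6J gave it 0.74.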
